A study of Homo sapiens with 6 samples.

Results

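The comparison described here sets 2 RNA libraries with WT in their title, DAUDI-WT and DOHH2-WT, against 4 libraries of drug-resistant cultures of the same 2 human B cell lymphoma lines. These 6 libraries, chosen by title, are all the libraries of the series. The labels give DAUDI as a line of Burkitt lymphoma, DOHH2 as one of follicular lymphoma, and ATCC as the source of both. Each line has a culture resistant to idelalisib, an inhibitor of the delta catalytic subunit of PI3 kinase (PIK3CD), and a culture resistant to ibrutinib, an inhibitor of Bruton's tyrosine kinase (BTK). Drug doses, the way in which resistance was raised, whether a culture is 1 clone, and what the WT cultures received do not stand in the labels used here. PolyA RNA of 1 culture gave 1 library, and the question is which transcripts separate the cultures without drug resistance from the resistant ones. A gene was described as separating the groups when both WT-titled libraries lay on one side of all 4 resistant libraries. This held for 7257 of 12337 genes tested (58.8%), and for 1789 of them the nearest libraries of the groups were at least 1 apart on the log2(FPKM + 1) scale. FPKM counts fragments relative to transcript length and to all mapped fragments of a library.

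The titles and the transcripts did not go together for the WT-titled libraries. DAUDI and DOHH2 are lines of germinal centre type, the type of B cell that carries CD10, the product of MME, and CD38 on its surface. MME was listed at 0.117 and 0.0260 FPKM in DAUDI-WT and DOHH2-WT, while the resistant libraries had 72.3, 76.6, 63.7 and 51.4 FPKM. Here and below, values are in the order DAUDI then DOHH2 for the WT-titled libraries, and in the order DAUDI idelalisib, DAUDI ibrutinib, DOHH2 idelalisib, DOHH2 ibrutinib for the resistant libraries. BCL2, the survival gene that the translocation of follicular lymphoma places under immunoglobulin control, was at 59.7 and 51.6 FPKM against 0.228, 0.395, 53.5 and 58.2 FPKM. The library titled DAUDI-WT thus held BCL2 at the level of all DOHH2 libraries, while both resistant DAUDI libraries were under 0.5 FPKM. Over the genes tested, the WT-titled libraries correlated with each other at r = 0.958, and each correlated with the resistant libraries of its own line at r between 0.698 and 0.717. The resistant libraries of the other line gave r between 0.701 and 0.723, so a WT-titled library was no nearer to the line it is titled with. Between the WT-titled libraries 135 genes differed by at least 1, against 3836 and 4301 between DAUDI-WT and the resistant DAUDI libraries. Between the 2 resistant libraries of a line 432 genes differed in DAUDI and 133 in DOHH2. Between resistant libraries of different lines 2303 to 2720 did. The names WT-titled and resistant are therefore used below for the libraries as titled, without a statement on which line the WT-titled RNA came from. A difference between the groups holds resistance, and whatever else sets the WT-titled libraries apart, at once, and these cannot be told apart.

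A mature B cell that meets antigen can enter a germinal centre, where the repressor BCL6 sustains proliferation, antibody gene mutation and surface CD10 and CD38. Strong signals through CD40, the B cell receptor or toll-like receptors activate NF-kB and raise IRF4, which represses BCL6. BLIMP-1, the product of PRDM1, then drives the change towards an antibody-secreting plasma cell and silences much of the B cell programme. Diffuse large B cell lymphomas are sorted by these programmes into a germinal centre type and an activated B cell type with NF-kB and IRF4 activity. Epstein-Barr virus activates many of the same host genes through its latent membrane proteins, and viral transcripts were not analysed here. The B cell receptor signals through LYN, SYK, BTK and PI3 kinase.

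Relative depth, taken from coverage per FPKM against DAUDI-WT, was between 0.936 and 1.04 in the other libraries except the ibrutinib-resistant DAUDI library, which was at 1.42. Between 10279 and 10687 genes reached 1 FPKM per library. Absolute depth is unknown because the values are not counts. In bulk RNA, fewer cells of a type and less RNA per cell cannot be told apart. Each group mixes the lines and the labels name no replicate culture, so p-values measure the spread between these 6 libraries only. The linear model of limma, run on log2(FPKM + 1) with 2 WT-titled against 4 resistant libraries, called a gene when its p, adjusted over the 12337 genes by Benjamini-Hochberg, was under 0.05.

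Both WT-titled libraries lay above every resistant library for 3145 genes (25.5%) and below every resistant library for 4112 genes (33.3%). A gap of at least 1 between the nearest libraries was found for 1017 genes above (8.24%) and 772 genes below (6.26%), that is 14.5% of all genes tested. The widest gaps were larger above than below. A gap of 4 or more was seen for 89 genes above and 25 below, and a gap of 2 or more for 431 above and 193 below. The model called 1885 genes higher in the WT-titled libraries (15.3%) and 2249 lower (18.2%), each of which lay on one side, and it did not call 3123 genes that also lay on one side. Of the 1789 genes with a gap of 1 or more it called 1745. PLXNB1 and SYDE2 lay just inside and just outside the gap threshold above, at 1.001 and 0.9973, and TBC1D19 and THAP9-AS1 did so below, at -1 and -0.9988. The median difference over all genes was -0.12, and it became 0.0085 when libraries were rescaled by the median of ratios. Of the calls 45.6% were higher in the WT-titled libraries, and 54.8% were after that rescaling. A call on a gene with a small difference can therefore depend on the scaling. With 1 WT-titled library left out, which takes the lone one to vary like the rest, the model called 1065 genes higher and 837 lower without DAUDI-WT, and 1046 higher and 787 lower without DOHH2-WT. Calls that end in either case are given below beside the genes.

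**Figure D1:**
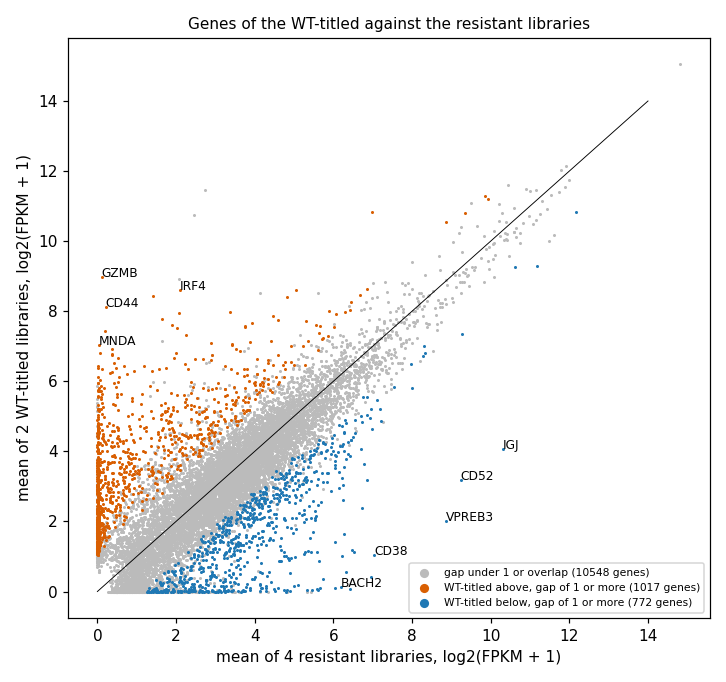
Mean log2(FPKM + 1) of the 2 WT-titled libraries against the mean of the 4 resistant libraries, 1 point per gene tested. The 1017 genes with both WT-titled libraries at least 1 above every resistant library are orange, the 772 genes at least 1 below are blue, and the line marks equal means. Many orange genes lie at the left edge, near 0 in the resistant libraries.

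Over the genes with a gap of 1 or more the WT-titled libraries differed from each other by a median of 0.137, and by 1 or more for 17 genes, a description of genes chosen for having both beyond the others. Among the genes above, the resistant library nearest to the WT-titled pair was a DAUDI library for 691 and a DOHH2 library for 326. Among the genes below, the nearest was DAUDI for 378 and DOHH2 for 394. The difference between WT-titled and resistant libraries itself differed between the lines as titled for 177 of the 1789 genes. This was the interaction of line and state in limma, and 9.6% of all genes tested had this call. With the WT-titled libraries close together, such a call can come from the resistant lines differing from each other.

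The genes highest above the resistant libraries included the protease of cytotoxic granules, adhesion and cytoskeletal proteins, and a nuclear protein of the interferon response. GZMB (chr14:25100161-25103432 on hg19), which encodes granzyme B, was at 451 and 554 FPKM against 0.155, 0.113, 0.0420 and 0 FPKM. CD44 (chr11:35160417-35253949), the hyaluronan receptor of memory and activated lymphocytes, was at 277 and 279 FPKM against 0.330, 0.334, 0 and 0.0205 FPKM. VIM, the intermediate filament protein vimentin, was at 163 and 182 FPKM against 0.307, 0.285, 0.0149 and 0 FPKM. For these 3 genes every resistant library was under 0.5 FPKM and both WT-titled libraries were above 150. The differences of mean log2(FPKM + 1) were 8.86 ± 0.15 (SE), 7.91 ± 0.18 and 7.24 ± 0.18, with adjusted p of 1.7e-05, 1.7e-05 and 2.0e-05 by limma. These genes were picked for their gap, so the calls add no separate evidence. All of the 15 widest genes in each direction were called, with adjusted p of at most 0.0011.

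MNDA, an interferon-inducible nuclear protein of myeloid cells and some B cells, was at 124 and 137 FPKM against 0.0927, 0.0407, 0 and 0 FPKM, and LGALS3, the lectin galectin-3, at 51.8 and 51.8 FPKM against 0, 0.0511, 0 and 0 FPKM. Both are printed here with the 250 bases before the RefSeq gene start because they show near absence in all resistant libraries and carry letters of motifs that the factors discussed below bind. The promoters are from RefSeq on GRCh38.p14, matched by symbol, while the deposited values are on hg19. MNDA starts after chr1:158831101-158831350 on the plus strand, where capitals mark the letters of an interferon-stimulated response element, GAAA and, after any 2 bases, GAAA again. LGALS3 starts after chr14:55129002-55129251 on the plus strand, where capitals mark GGGA followed after any 4 bases by CC, letters shared by many NF-kB sites.
MNDA: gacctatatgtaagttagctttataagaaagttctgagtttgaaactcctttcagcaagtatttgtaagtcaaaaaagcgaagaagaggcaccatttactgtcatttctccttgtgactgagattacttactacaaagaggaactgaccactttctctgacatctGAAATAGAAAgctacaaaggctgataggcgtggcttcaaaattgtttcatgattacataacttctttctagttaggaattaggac
LGALS3: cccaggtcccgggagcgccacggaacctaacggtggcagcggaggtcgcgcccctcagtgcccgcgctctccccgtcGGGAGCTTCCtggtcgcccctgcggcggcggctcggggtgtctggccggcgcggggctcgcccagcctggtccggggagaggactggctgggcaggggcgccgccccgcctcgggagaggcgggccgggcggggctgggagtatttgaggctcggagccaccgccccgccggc

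Transport and membrane proteins made up much of the rest. SLC12A7, a potassium chloride cotransporter, was at 108 and 115 FPKM against 0.00521, 0.0343, 0.0333 and 0.156 FPKM. SCARB2, a lysosomal membrane protein, was at 86.1 and 80.0 FPKM against 0.00583, 0.0213, 0.00687 and 0.0143 FPKM. GPR15, a homing receptor of lymphocytes, was at 63.0 and 59.5 FPKM against 0, 0.0383, 0.0282 and 0 FPKM. In none of these 3 did a resistant library exceed 0.2 FPKM. SIGLEC6, a sialic acid binding lectin, was at 78.4 and 59.6 FPKM against 0, 0.0462, 0 and 0 FPKM, and its gap of 5.86 was as wide as that of GPR15, 5.86. TUBB6, a beta tubulin, was at 82.1 and 88.0 FPKM against 0.0336, 0, 0 and 0 FPKM, and MGST1, a microsomal glutathione transferase, at 82.1 and 78.2 FPKM against 0.0897, 0.117, 0.174 and 0 FPKM. ADTRP, a membrane hydrolase, was at 56.8 and 64.0 FPKM against 0, 0.0247, 0 and 0 FPKM, and DHRS9, a retinol dehydrogenase, at 59.6 and 69.2 FPKM against 0.0216, 0.110, 0.0465 and 0.0239 FPKM. The long noncoding RNA LINC00152 had the highest resistant values of the 15, at 102 and 98.7 FPKM against 0.716, 0.885, 0.0976 and 0.230 FPKM. CCND2, cyclin D2, which pairs with CDK4 and CDK6 at the entry into the cell cycle, was at 92.7 and 127 FPKM against 0.0252, 0.0798, 0.505 and 0.689 FPKM, and here the DOHH2 libraries were the higher resistant pair.

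Of the 15 genes furthest below the resistant libraries, VPREB3, MME, GCSAM, CD38, BACH2 and STAP1 stand on the germinal centre or precursor lists and the other 9 do not. VPREB3 (chr22:24094930-24096630), related to the surrogate light chain, was at 3.63 and 2.46 FPKM against 562, 857, 311 and 315 FPKM. CD52, the glycoprotein bound by the antibody alemtuzumab, was at 9.15 and 7.13 FPKM against 571, 497, 683 and 685 FPKM. IGJ, the J chain of polymeric antibodies, was at 11.6 and 21.3 FPKM against 931, 1089, 1765 and 1426 FPKM. All 3 exceeded 300 FPKM in every resistant library and stayed above 2 FPKM in the WT-titled ones. MME (chr3:154797436-154901518), given above, had a gap of 5.55 and a difference of -5.95 ± 0.19 (adjusted p = 2.7e-05 by limma). BMP7, a bone morphogenetic protein, was at 0.0723 and 0.0148 FPKM against 67.8, 72.3, 111 and 95.7 FPKM, and BACH2, the repressor that holds back PRDM1, at 0.182 and 0.0252 FPKM against 81.8, 109, 64.5 and 46.4 FPKM. Both were below 0.2 FPKM in the WT-titled libraries and above 45 FPKM in all others.

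GCSAM, an adaptor that restrains germinal centre B cell motility, was at 0.494 and 0.451 FPKM against 69.3, 87.7, 76.3 and 84.1 FPKM. CD38, the ADP-ribosyl cyclase of germinal centre and plasma cells, was at 0.703 and 1.47 FPKM against 132, 167, 109.5 and 121 FPKM. Their promoters are shown as the lower counterparts of MNDA and LGALS3. GCSAM lies on the minus strand with its 250 bases at chr3:112133249-112133498, where capitals mark the same NF-kB letters, and CD38 on the plus strand with its 250 bases at chr4:15778078-15778327, where capitals mark GGAA followed after any 2 bases by GAAA, the composite element that an ETS factor such as PU.1 or SPIB shares with IRF4 or IRF8.
GCSAM: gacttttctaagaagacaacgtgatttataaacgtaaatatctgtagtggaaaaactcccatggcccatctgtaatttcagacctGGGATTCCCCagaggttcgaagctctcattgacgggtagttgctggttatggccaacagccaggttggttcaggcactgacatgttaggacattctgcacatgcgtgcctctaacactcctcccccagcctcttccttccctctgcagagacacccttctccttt
CD38: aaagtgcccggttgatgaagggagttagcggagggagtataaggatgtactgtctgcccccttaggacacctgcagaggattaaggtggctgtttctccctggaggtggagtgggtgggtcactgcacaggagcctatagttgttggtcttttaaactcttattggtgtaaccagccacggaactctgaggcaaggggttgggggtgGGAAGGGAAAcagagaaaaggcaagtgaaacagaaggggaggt

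PRKAR2B, a regulatory subunit of protein kinase A, was at 0.457 and 0.197 FPKM against 65.0, 71.3, 234 and 209 FPKM, with the DOHH2 libraries the higher resistant pair. DEPTOR, an inhibitor of the kinase mTOR, was at 0.332 and 0.211 FPKM against 46.0, 66.3, 55.3 and 42.9 FPKM. STAP1, an adaptor of B cell receptor signalling, was at 1.17 and 1.20 FPKM against 111, 137, 66.5 and 68.7 FPKM. CD27, a receptor of the TNF family on memory and germinal centre B cells, was at 1.10 and 1.49 FPKM against 121, 118, 66.3 and 65.2 FPKM. Resistant DAUDI libraries were the higher pair for STAP1 and CD27, and no resistant value came near a WT-titled one. GNG7, a G protein subunit, was at 0.0342 and 0.0140 FPKM against 41.1, 48.5, 30.1 and 38.8 FPKM. LY6E, an interferon-inducible surface protein, was at 0.118 and 0.0304 FPKM against 62.3, 82.2, 34.3 and 33.3 FPKM, and PPDPF at 0.0515 and 0 FPKM against 65.7, 38.7, 35.1 and 39.0 FPKM.

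**Figure D2:**
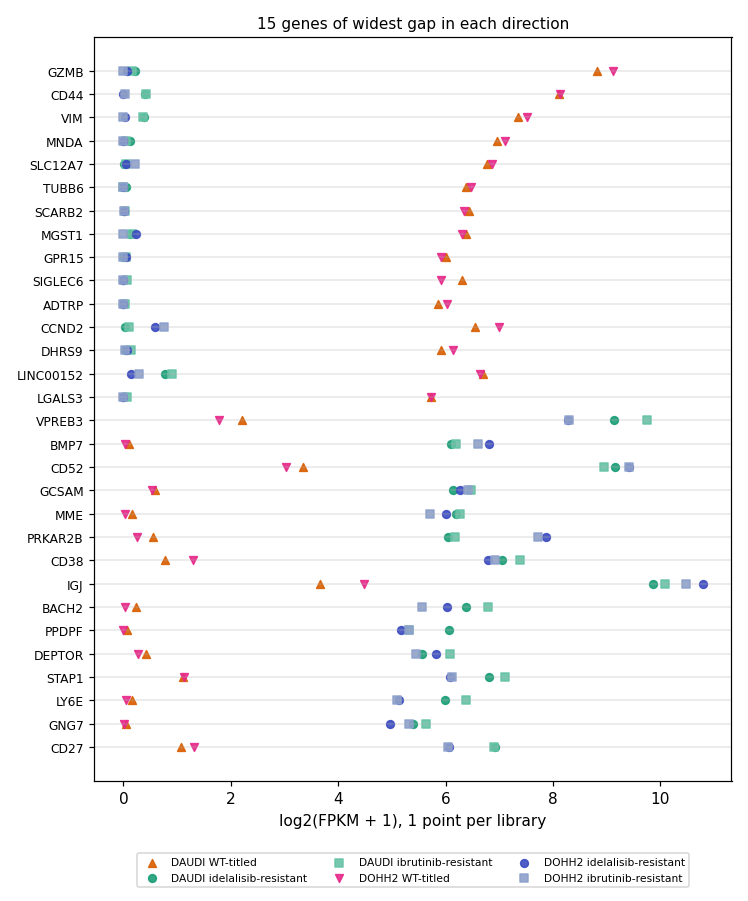
The 15 genes of widest gap in each direction, as log2(FPKM + 1) with 1 point per library. Triangles are the WT-titled libraries, circles idelalisib-resistant and squares ibrutinib-resistant cultures. The groups do not touch, and the distance between the nearest libraries runs from 8.61 for GZMB to 4.73 for CD27.

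A change from near absence to clear expression was more frequent in one direction. For 111 genes both WT-titled libraries reached 10 FPKM and all 4 resistant libraries stayed under 0.5 FPKM, and for 29 genes the reverse held. The 111 genes included CXCL13, the chemokine that draws B cells to follicles, at 23.3 and 20.8 FPKM against 0, 0, 0 and 0 FPKM, and SOCS3, a feedback inhibitor of STAT3 signalling, at 25.5 and 32.9 FPKM against 0, 0.00773, 0 and 0 FPKM. They also included cancer-testis genes of the X chromosome, which are normally read in the germ line. MAGEA9 was at 43.9 and 49.0 FPKM against 0, 0.0351, 0 and 0 FPKM and MAGEB1 at 19.3 and 20.9 FPKM against 0.0180, 0.0395, 0 and 0 FPKM. CT45A5 was at 33.9 and 37.9 FPKM against 0.215, 0.0586, 0.00436 and 0 FPKM, CT45A6 at 36.0 and 46.7 FPKM against 0.287, 0.0679, 0.00623 and 0 FPKM, CT45A2 at 16.7 and 18.6 FPKM against 0.0539, 0.0400, 6.55e-04 and 0 FPKM and CT45A4 at 10.9 and 12.6 FPKM against 0.0236, 0.0257, 0.00556 and 0 FPKM. The CT45A genes are near-identical copies and the listed loci of CT45A2 and CT45A4 overlap, so the split of reads among them is uncertain. On the reverse side, SMAD1, which carries the signal of bone morphogenetic proteins, was at 0.0832 and 0 FPKM against 38.4, 46.1, 22.8 and 13.2 FPKM. These 9 genes were named after their values were seen.

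What the WT-titled libraries showed of B cell identity was first a retained B lineage. MS4A1, the antigen CD20, was at 435 and 429 FPKM against 192, 209, 249.6 and 264 FPKM and was called higher (0.93 ± 0.16, adjusted p = 0.0087 by limma). PAX5, the factor that fixes B cell identity, was at 74.2 and 54.9 FPKM against 28.1, 33.1, 46.5 and 39.7 FPKM with an adjusted p of 0.0504 by limma, which missed the threshold, and was called under the median of ratios (adjusted p = 0.0294). CD79A, a signalling chain of the B cell receptor, was at 267 and 327 FPKM against 533, 655, 389 and 352 FPKM and was not called. CD79B, its partner, was at 185 and 226 FPKM against 490.4, 514, 117 and 64.9 FPKM, so that both WT-titled values lay between the DAUDI and the DOHH2 resistant values. CD37, a tetraspanin, was called higher at 870.2 and 1157 FPKM against 596, 567, 475 and 493 FPKM. Of 23 B lineage surface genes tested, 6 were called higher, 4 lower and 13 were not called, with a median difference of 0.47. Without DAUDI-WT 1 stayed called higher and without DOHH2-WT 0 did, with 6 at an unadjusted p under 0.05 in each case by limma. The call of MS4A1 was lost when either WT-titled library was left out (adjusted p between 0.0713 and 0.0738) and that of CD37 without DOHH2-WT (adjusted p = 0.096). The lower members were VPREB3 and CD52 with FCRL1 at 2.26 and 1.80 FPKM against 18.2, 20.3, 13.6 and 10.3 FPKM and LY86 at 9.21 and 8.15 FPKM against 41.9, 37.8, 37.9 and 35.9 FPKM.

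Germinal centre genes were low. Of 31 tested members of the germinal centre list 17 were called lower in the WT-titled libraries, 0 higher and 14 were not called, beside 18.2% lower and 15.3% higher over all genes. These shares belong only beside the list counts below that come from all 6 libraries in 2 groups at an adjusted p under 0.05. Counts from a fit without a WT-titled library belong beside the totals of that fit given above. For counts at an unadjusted p no share over all genes is given. At an unadjusted p under 0.05 in limma, 2 germinal centre members were higher. Without DAUDI-WT 12 and without DOHH2-WT 10 were called lower. The absence of higher calls ended when the resistant lines were taken as 2 groups, giving 3 groups in all. The WT-titled libraries were then set against the mean of the resistant lines. Limma called 6 members higher than that mean, among them LMO2, SERPINA9 and RGS13, and 24 lower. Over all 12337 genes this fit called 3294 higher and 4331 lower. The share of the list called higher was thus smaller than that of all genes, and the share called lower was larger. These totals belong beside the counts with 3 groups below. The median difference of the 31 members against all resistant libraries was -1.55, and -0.12 over all genes. The count includes MME, CD38, GCSAM, BACH2 and STAP1, which were given above. BCL6, the master repressor of the germinal centre, was at 7.76 and 9.07 FPKM against 44.0, 50.9, 121 and 110.1 FPKM (-3.00 ± 0.48, adjusted p = 0.0065 by limma). The resistant DOHH2 libraries were above the resistant DAUDI ones, and both pairs exceeded the WT-titled pair. The call was lost when either WT-titled library was left out (adjusted p between 0.0636 and 0.0729 by limma). MYBL1, a factor of proliferating germinal centre cells, was at 0.348 and 0.341 FPKM against 16.3, 14.5, 15.1 and 14.4 FPKM. S1PR2, the receptor that confines B cells to the germinal centre, was at 4.35 and 4.66 FPKM against 26.9, 49.2, 73.6 and 53.1 FPKM. CCND3, cyclin D3 of the dark zone, was at 5.90 and 3.996 FPKM against 46.6, 75.1, 39.0 and 47.2 FPKM, and NEIL1, a DNA repair glycosylase, at 0.256 and 0.477 FPKM against 8.90, 17.6, 22.8 and 33.8 FPKM.

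Of the 14 germinal centre genes without a call, 6 also lay below every resistant library, 3 lay above and 5 overlapped. RGS13, a brake on chemokine receptors, was at 75.5 and 52.2 FPKM against 1.75, 3.66, 100.5 and 94.7 FPKM, and LMO2, a transcriptional cofactor, at 10.5 and 10.3 FPKM against 0.878, 2.13, 13.6 and 11.7 FPKM. For RGS13 and LMO2 the resistant DAUDI libraries were low and the WT-titled ones stood with DOHH2. SERPINA9, a germinal centre serpin, was at 5.67 and 8.80 FPKM against 4.35, 0.990, 2.67 and 2.44 FPKM with a difference of 1.25 ± 0.41 (adjusted p = 0.068 by limma). It was called at a pseudocount of 5 (adjusted p = 0.047) and without the idelalisib-resistant DAUDI library (adjusted p = 0.041). A4GALT, the enzyme that makes the Burkitt antigen CD77, was at 0.0445 and 0.0304 FPKM against 7.58, 9.06, 0 and 0 FPKM, and FPKM above 1 occurred in the resistant DAUDI libraries alone among these 6. MEF2B, a factor that induces BCL6, was at 87.3 and 118 FPKM against 127, 226, 336 and 255 FPKM, below the resistant range by a gap of 0.11 and not called (adjusted p = 0.079 by limma, and 0.032 with the cell line as a block).

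Genes of activated B cell type lymphoma were high. Of 24 tested members 16 were called higher, 0 lower and 8 were not called, with a median of 3.06. At an unadjusted p under 0.05 in limma, 0 were lower, and 13 stayed called higher when either WT-titled library was left out. With the 3 groups 22 were called higher and 2 lower. IRF4 was at 427 and 357 FPKM against 7.06, 23.5, 0.304 and 0.339 FPKM. Both WT-titled libraries exceeded the highest resistant one by at least 3.87 on the log2 scale, and the resistant DAUDI libraries were above the DOHH2 ones. Its difference was 6.51 ± 1.31 (adjusted p = 0.015 by limma), with the resistant lines far apart. BATF, the AP-1 factor that works with IRF4, was at 64.2 and 58.0 FPKM against 0.531, 1.08, 0 and 0.0419 FPKM. STAT3, the factor activated by IL-6 and IL-10, was at 132 and 109.7 FPKM against 8.01, 12.3, 10.5 and 11.7 FPKM, and IL10 itself at 18.8 and 12.4 FPKM against 0.0381, 0.0278, 0 and 0 FPKM. CFLAR, an inhibitor of caspase 8 that NF-kB induces, was at 109.99 and 103 FPKM against 8.27, 6.66, 5.92 and 5.40 FPKM. PTPN1, a phosphatase of JAK and STAT signalling, was at 202 and 198 FPKM against 13.9, 18.4, 13.1 and 12.6 FPKM, and PIM2, a survival kinase, at 232 and 256 FPKM against 88.5, 89.3, 49.3 and 49.8 FPKM. ENTPD1, the ectonucleotidase CD39, was at 19.98 and 16.8 FPKM against 0.0490, 0.0764, 0.607 and 0.528 FPKM. FOXP1 was the member of smallest called difference, at 35.4 and 36.0 FPKM against 15.001, 21.8, 14.4 and 13.0 FPKM. The calls of IRF4, PIM2 and FOXP1 were lost when either WT-titled library was left out (adjusted p between 0.0704 and 0.118 by limma). BCL2, also on this list, was not called.

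NF-kB target genes followed, with 19 of 33 tested members called higher, 0 lower and 14 not called (median 1.32). Over all genes 15.3% were called higher and 18.2% lower. At an unadjusted p under 0.05 in limma, 1 was lower, and without DAUDI-WT 10 and without DOHH2-WT 11 were called higher. With the 3 groups 24 were called higher and 2 lower. CCR7, the receptor that brings B cells to the T cell zone, was at 91.1 and 74.5 FPKM against 0.258, 1.86, 0 and 0 FPKM. BCL2A1, a survival protein of the BCL2 family, was at 199 and 169.8 FPKM against 1.68, 3.51, 3.88 and 3.63 FPKM. CCL22, a chemokine for T cells, was at 53.4 and 25.9 FPKM against 0.247, 0.231, 0 and 0 FPKM. TNFAIP3, the feedback inhibitor A20, was at 34.0 and 29.7 FPKM against 3.96, 6.39, 0.370 and 0.771 FPKM, with a difference of 3.42 ± 0.75 (adjusted p = 0.019 by limma), and its call was lost when either WT-titled library was left out (adjusted p between 0.126 and 0.141). Of the 33 members 22 lay above every resistant library, 1 below, and 10 overlapped, beside 25.5% above and 33.3% below over all genes. The members named here are among the 6 of largest difference, and the 10 that overlapped are not named. Of 25 tested host genes that Epstein-Barr virus is known to induce 19 were called higher, 0 lower and 6 not (median 3.85), and 0 were lower at an unadjusted p under 0.05 in limma. With the 3 groups 20 were called higher and 3 lower. This list shares CCR7, BCL2A1, CCL22, CFLAR, IL10, BATF and other genes with the lists above, so its count is not a separate one. GPR183, a receptor that positions activated B cells and was first found as a virus-induced gene, was at 56.9 and 55.8 FPKM against 0.975, 0.676, 0.0184 and 0.0948 FPKM. MIR155HG, the host transcript of a microRNA of activated B cells, was at 84.1 and 70.0 FPKM against 0.665, 0.486, 3.04 and 3.77 FPKM, and was named after its value was seen. FCER2, the antigen CD23, is on the same list and went another way, at 0.140 and 0.144 FPKM against 10.3, 18.1, 0.137 and 0.170 FPKM: the resistant DAUDI libraries alone were above 1 FPKM.

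**Figure D3:**
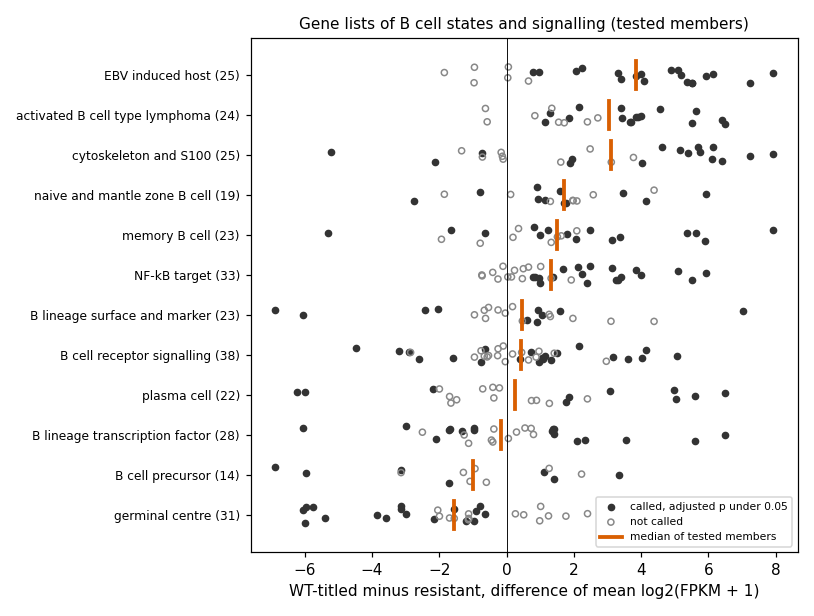
Difference of mean log2(FPKM + 1), WT-titled minus resistant, for the tested members of 12 gene lists, with the number tested in parentheses. Filled points were called by limma at an adjusted p under 0.05, open points were not, and orange bars are medians, from 3.85 for host genes induced by Epstein-Barr virus to -1.55 for germinal centre genes. Several genes stand on more than 1 list.

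Memory B cell genes were mixed. Of 23 tested members 12 were called higher, 3 lower and 8 were not, with a median of 1.51. Of the lower calls 1 stayed without DAUDI-WT and 2 without DOHH2-WT. Called higher were CD44, with TNFRSF13B, the receptor TACI, at 50.8 and 59.1 FPKM against 0.118, 0.433, 0 and 0 FPKM. FCRL5, an Fc receptor-like protein of atypical memory cells, was at 82.5 and 69.1 FPKM against 0.205, 0.550, 0.148 and 0.267 FPKM, and FCRL3 at 45.6 and 26.5 FPKM against 6.01, 2.95, 1.15 and 1.34 FPKM. CD80, a costimulatory ligand, was at 10.4 and 9.27 FPKM against 1.86, 2.14, 0.381 and 0.139 FPKM. The lower members were CD27, the usual surface marker of memory B cells, with CD84 at 0.886 and 1.16 FPKM against 7.06, 6.17, 3.53 and 4.92 FPKM and TLR10 at 17.6 and 18.4 FPKM against 31.9, 29.0, 27.4 and 27.6 FPKM. The calls of CD80 and CD84 were lost when either WT-titled library was left out (adjusted p between 0.0583 and 0.106 by limma), and those of FCRL3 and TLR10 without DAUDI-WT (adjusted p of 0.080 and 0.056). Of 19 tested genes of naive and mantle zone B cells 9 were called higher, 2 lower and 8 were not (median 1.71), and 6 stayed called higher and 1 lower when either WT-titled library was left out. S1PR1, the receptor for leaving lymphoid tissue, was at 20.1 and 17.5 FPKM against 0.103, 0.158, 0.1004 and 0.115 FPKM. SATB1, a chromatin organizer, was called lower at 1.27 and 2.28 FPKM against 16.4, 22.4, 17.4 and 14.8 FPKM. TCL1A, a coactivator of AKT in naive B cells, was at 344 and 390.1 FPKM against 282, 319.9, 0.0494 and 0 FPKM and was not called, since it is high in every DAUDI and WT-titled library and near 0 in the resistant DOHH2 ones. Its neighbour TCL1B was called, at 343 and 352 FPKM against 5.58, 6.38, 0 and 0.0633 FPKM, and its call was lost when either WT-titled library was left out (adjusted p between 0.0555 and 0.0566 by limma).

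Of the mantle cell lymphoma list 8 of 13 members were tested, and 3 were called higher, 1 lower and 4 were not. CD5, a T cell antigen also on mantle cell lymphoma and some normal B cells, was at 15.1 and 15.5 FPKM against 0.00905, 0.0132, 0 and 0 FPKM. FARP1 was called higher at 7.81 and 4.56 FPKM against 0, 0.0165, 0.0360 and 0.00624 FPKM, and CNR1, a cannabinoid receptor, was called lower at 1.08 and 1.26 FPKM against 17.0, 25.2, 80.1 and 60.2 FPKM, a call that was lost when either WT-titled library was left out (adjusted p between 0.0641 and 0.0680 by limma). The defining genes of that lymphoma, cyclin D1 (CCND1) and SOX11, stayed under 0.3 FPKM in all 6 libraries.

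Plasma cell genes were called in both directions. Of 22 tested members 7 were called higher, 3 lower and 12 were not, with a median of 0.26. When either WT-titled library was left out 4 stayed called higher. PRDM1 was at 71.7 and 66.7 FPKM against 0.749, 1.35, 0.0249 and 0.0583 FPKM (5.59 ± 0.39, adjusted p = 0.00033 by limma). SLAMF7, a surface antigen of plasma cells, was at 45.1 and 53.2 FPKM against 1.15, 1.41, 0 and 0 FPKM, and ELL2, an elongation factor for secreted antibody transcripts, at 8.15 and 9.39 FPKM against 0.209, 0.438, 0 and 0 FPKM. ITM2C was at 40.1 and 40.3 FPKM against 0.0625, 0.0224, 0 and 1.73 FPKM, where 1 resistant library, the ibrutinib-resistant DOHH2 one, stood above the others. Lower were CD38 and IGJ with MZB1, a chaperone of antibody assembly, at 54.3 and 54.8 FPKM against 298, 479.6, 169.8 and 169.9 FPKM, whose call was lost when either WT-titled library was left out (adjusted p of 0.12 in both cases by limma). XBP1, the factor of the secretory pathway, was at 40.8 and 62.7 FPKM against 307, 431, 68.3 and 74.5 FPKM, with a gap of 0.12 and no call (adjusted p = 0.21 by limma). SDC1, the plasma cell antigen CD138, was under 0.6 FPKM in every library and was not tested. Precursor genes were also called in both directions: of 14 tested members 3 were called higher, 4 lower and 7 were not (median -1.01). VPREB1, the surrogate light chain, was listed at 0 in both WT-titled libraries and at 18.7, 20.4, 4.33 and 1.69 FPKM in the others. Its adjusted p of 0.0496 by limma lost the call without any 1 library other than the ibrutinib-resistant DOHH2 one (adjusted p between 0.0699 and 0.233). Of the list, 1 gene stayed called higher without DAUDI-WT and 2 without DOHH2-WT, with 3 lower in both cases. IL7R was listed at 0 in both and at 2.08, 2.66, 1.57 and 2.91 FPKM in the others. IGLL1 was at 0.119 and 0.0176 FPKM against 2.89, 37.8, 3.19 and 11.2 FPKM and missed the threshold (adjusted p = 0.059 by limma).

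The transcription factors of B cells moved in both directions: of 28 tested 9 were called higher, 8 lower and 11 were not, with a median of -0.16. Without DAUDI-WT 4 and without DOHH2-WT 5 stayed called higher, and 5 and 6 lower. The higher factors, beside IRF4 and PRDM1, included SPIB, an ETS factor of B and plasmacytoid dendritic cells, at 351 and 427 FPKM against 25.9, 26.1, 39.3 and 38.9 FPKM. Its relative SPI1, which encodes PU.1, was called lower at 6.98 and 7.62 FPKM against 22.5, 25.98, 31.4 and 25.7 FPKM, and so was IRF8, the partner of PU.1 in germinal centres, at 21.0 and 19.5 FPKM against 98.6, 94.4, 81.4 and 83.3 FPKM. In this pair of families, SPIB and IRF4 were high and SPI1 and IRF8 low in both WT-titled libraries. ID2, an inhibitor of E proteins, was at 58.0 and 37.6 FPKM against 5.76, 12.1, 8.43 and 8.43 FPKM, and TCF4, an E protein, at 130.4 and 124 FPKM against 19.8, 24.5, 36.4 and 40.2 FPKM. EBF1, an early B cell factor, was at 22.4 and 14.9 FPKM against 5.65, 8.04, 6.03 and 5.54 FPKM, and POU2F2, the octamer factor OCT2, at 119 and 131 FPKM against 38.8, 38.1, 63.4 and 57.6 FPKM. ETS1, which restrains plasma cell differentiation, was called lower at 45.0 and 46.4 FPKM against 95.5, 106, 139.9 and 127 FPKM. FOXO1, the factor that PI3 kinase and AKT keep out of the nucleus, was called lower at 6.43 and 8.89 FPKM against 26.9, 32.7, 24.9 and 22.1 FPKM. MYC was called lower at 66.7 and 79.1 FPKM against 192, 117, 145 and 127 FPKM, where the smallest distance between the groups was 0.56 on the log2 scale. The calls of TCF4, POU2F2 and MYC were lost when either WT-titled library was left out (adjusted p between 0.0534 and 0.166 by limma), that of EBF1 without DAUDI-WT (adjusted p = 0.062), and that of MYC also without the idelalisib-resistant DOHH2 library (adjusted p = 0.0557) and under the median of ratios (adjusted p = 0.0563).

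**Figure D4:**
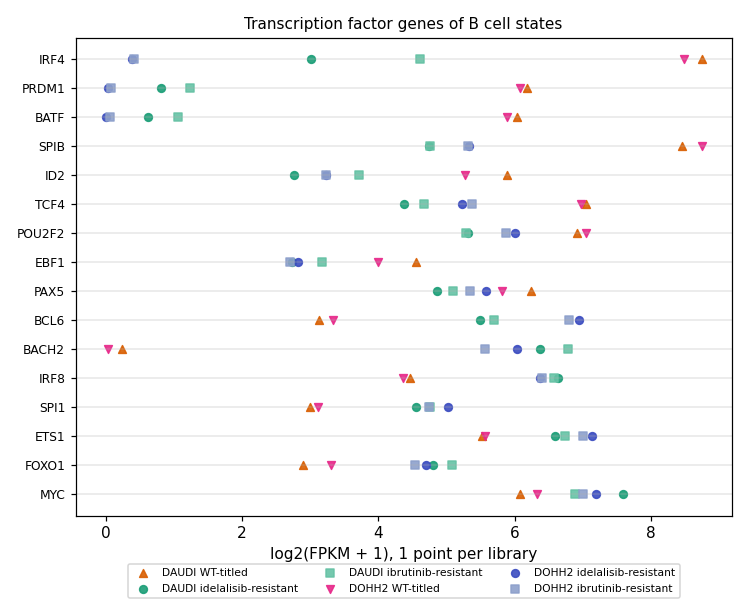
Transcription factor genes of B cell states as log2(FPKM + 1), 1 point per library, with triangles for the WT-titled libraries. IRF4, PRDM1, BATF and SPIB lie to the right of all resistant libraries by 3.13 or more, and BACH2, BCL6, IRF8 and SPI1 lie to the left by 1.45 or more.

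The targets of both drugs lay outside the resistant range, in opposite directions, as 58.8% of all genes tested lay outside it on one side or the other. BTK (chrX:100604435-100641212) was at 68.4 and 72.1 FPKM against 112, 115, 101.1 and 109 FPKM, with a difference of -0.63 ± 0.10 (adjusted p = 0.0065 by limma). PIK3CD (chr1:9711790-9789172) was at 36.7 and 34.3 FPKM against 13.2, 15.3, 13.6 and 12.2 FPKM, with a difference of 1.33 ± 0.13 (adjusted p = 0.001). So BTK was lower and PIK3CD higher in the WT-titled libraries than in any resistant library. Of 38 tested genes of B cell receptor signalling 14 were called higher, 7 lower and 17 were not, with a median of 0.43. Without DAUDI-WT 7 and without DOHH2-WT 6 stayed called higher, and 5 and 4 lower. The SRC family kinases, which act first at the receptor, moved in both directions. LYN was called higher, at 221 and 209 FPKM against 21.4, 29.0, 23.7 and 19.0 FPKM. BLK was at 5.05 and 10.4 FPKM against 67.8, 67.9, 81.7 and 83.0 FPKM, FYN at 1.83 and 1.81 FPKM against 20.7, 32.2, 17.9 and 13.0 FPKM and LCK at 0 and 0.0303 FPKM against 22.0, 17.1, 18.6 and 32.0 FPKM, all called lower. FGR was at 0.314 and 0.489 FPKM against 37.1, 25.9, 2.26 and 2.11 FPKM and was not called (adjusted p = 0.13 by limma), with the resistant DAUDI libraries far above the DOHH2 ones. With the cell line as a block it was called (adjusted p = 0.046). Every library thus held a SRC family kinase above 60 FPKM, LYN in the WT-titled libraries and BLK in the resistant ones.

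Below these kinases, SYK was at 131 and 118 FPKM against 66.3, 69.9, 124 and 118 FPKM and PLCG2, the phospholipase that BTK activates, at 89.4 and 95.4 FPKM against 85.5, 103, 69.1 and 72.6 FPKM, and neither was called. BLNK, the adaptor between SYK and BTK, was called higher at 113 and 118 FPKM against 48.6, 48.4, 61.5 and 65.5 FPKM. PTPN6, the inhibitory phosphatase SHP-1, was called higher at 107 and 90.8 FPKM against 1.62, 3.23, 8.58 and 8.51 FPKM. VAV2, an exchange factor for small GTPases, was called higher at 65.9 and 59.4 FPKM against 1.59, 1.26, 10.5 and 9.99 FPKM, and GRB2, the adaptor towards RAS, at 147 and 152 FPKM against 48.4, 59.5, 51.3 and 51.5 FPKM. Of the PI3 kinase genes, PIK3R1, the regulatory subunit, was called higher at 20.6 and 15.7 FPKM against 8.42, 8.61, 7.43 and 7.67 FPKM and PIK3CG, the gamma catalytic subunit, lower at 1.98 and 1.75 FPKM against 12.5, 10.7, 21.9 and 23.2 FPKM. INPP5D, the phosphatase SHIP-1 that opposes PI3 kinase, was at 45.4 and 44.8 FPKM against 14.3, 17.7, 30.3 and 33.9 FPKM and was not called (adjusted p = 0.1 by limma, and 0.039 with the cell line as a block). The calls of BLNK, PTPN6 and VAV2 were lost when either WT-titled library was left out (adjusted p between 0.0519 and 0.148), and that of PIK3CG without DOHH2-WT (adjusted p = 0.0503). PRKCB, the protein kinase C that passes the signal to NF-kB, was at 47.9 and 42.3 FPKM against 23.3, 39.8, 0.0114 and 0.203 FPKM, so the resistant DOHH2 libraries alone were under 1 FPKM. Among 24 tested FOXO targets, 5 were called higher and 8 lower (median -0.28). INSR, the insulin receptor, was at 0.00622 and 0 FPKM against 6.75, 13.9, 10.3 and 9.09 FPKM and SESN1, a sestrin that restrains mTORC1, at 1.496 and 2.11 FPKM against 18.9, 26.1, 19.8 and 20.9 FPKM, both called lower.

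Cytoskeletal and S100 genes were high as a group: of 25 tested 13 were called higher, 3 lower and 9 were not, with a median of 3.11. When either WT-titled library was left out 11 stayed called higher and 1 lower. Beside CD44, VIM, TUBB6 and LGALS3, the members furthest apart were LGALS1, the lectin galectin-1, at 242 and 199.6 FPKM against 0.336, 0.677, 1.68 and 14.7 FPKM, TPM2, a tropomyosin, at 99.6 and 82.6 FPKM against 0.349, 0.823, 0.0911 and 0.211 FPKM, and S100A6, a calcium-binding protein, at 61.4 and 49.3 FPKM against 0.0601, 0.0881, 0 and 0 FPKM. The ibrutinib-resistant DOHH2 library held more LGALS1 than the other resistant libraries, and its call was lost when either WT-titled library was left out (adjusted p between 0.0736 and 0.0805 by limma). Among 31 cytokine and cytokine receptor genes 16 were called higher, 1 lower and 14 were not (median 1.28). Without DAUDI-WT 9 and without DOHH2-WT 10 stayed called higher. TNFRSF1B, the TNF receptor 2, was at 47.8 and 49.2 FPKM against 0.123, 0.137, 0.00820 and 0.0766 FPKM, IL2RB, a chain of the IL-2 and IL-15 receptors, at 30.8 and 33.7 FPKM against 0.0347, 0.314, 0 and 0 FPKM, and the cytokine IL32 at 40.2 and 16.2 FPKM against 1.43, 2.34, 0.0451 and 0.0820 FPKM, which lost its call without DAUDI-WT (adjusted p = 0.073 by limma). Of 22 homing and adhesion genes 8 were called higher, 5 lower and 9 were not (median 0.30), with CCR7, GPR183, S1PR1 and CD44 among those higher and S1PR2 lower as above. Without DAUDI-WT 3 and without DOHH2-WT 2 were called lower.

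Of 18 tested genes of the BCL2 family 5 were called higher, 2 lower and 11 were not (median 0.68). Over all genes 15.3% were called higher and 18.2% lower. BCL2L11, the BH3-only killer BIM, was at 139 and 139 FPKM against 10.5, 7.95, 19.6 and 21.5 FPKM, BID, which links caspase 8 to mitochondria, at 32.3 and 27.7 FPKM against 3.72, 4.45, 7.90 and 7.91 FPKM, and BNIP3, a mitophagy receptor induced by hypoxia, at 45.5 and 48.9 FPKM against 0, 0.0598, 0 and 0 FPKM. HRK, a BH3-only protein, was called lower at 2.36 and 2.86 FPKM against 16.2, 19.1, 10.5 and 6.84 FPKM. The calls of BID and HRK were lost when either WT-titled library was left out (adjusted p between 0.0504 and 0.138 by limma), and 3 family members stayed called higher and 0 lower, with 2 lower at an unadjusted p under 0.05. The higher members thus included the survival gene BCL2A1 together with the killers BCL2L11 and BID. Hypoxia and glycolysis genes were called higher in 14 of 30 cases, lower in 1 and not in 15 (median 1.11), and 9 stayed called higher when either WT-titled library was left out. CA9, carbonic anhydrase 9, was at 8.52 and 8.77 FPKM against 0, 0, 0.0433 and 0 FPKM and SLC16A3, the lactate exporter, at 9.30 and 15.2 FPKM against 0.0744, 0.190, 0 and 0 FPKM.

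The next 5 lists each had a smaller share of members called than all genes. Of 30 proliferation genes 3 were called higher, 6 lower and 21 were not (median -0.11, which became 0.034 under the median of ratios). E2F2, a cell cycle factor, was at 1.23 and 1.65 FPKM against 19.1, 16.3, 9.01 and 11.5 FPKM and MCM5, a subunit of the replicative helicase, at 104.7 and 108 FPKM against 20.6, 22.9, 21.5 and 29.2 FPKM. Without DAUDI-WT 2 proliferation genes were called higher and 4 lower, and without DOHH2-WT 2 and 1. Of 28 MYC target genes 2 were called higher, 3 lower and 23 were not (median 0.053), with TFRC, the transferrin receptor, at 385 and 295 FPKM against 34.5, 26.01, 23.0 and 27.0 FPKM. When either WT-titled library was left out 1 was called higher by limma and 0 lower, with 3 and 2 lower at an unadjusted p under 0.05. Of 18 MHC class I genes 0 were called in either direction by limma and 0 had an unadjusted p under 0.05, against 33.5% called over all genes. With the 3 groups 2 were called higher and 3 lower. Of 16 MHC class II genes 3 were called lower, 0 higher and 13 were not, and 1 was higher at an unadjusted p under 0.05 in limma. With the 3 groups 3 were called higher and 7 lower. The lower ones in the comparison of all resistant libraries were HLA-DQB1, a chain that presents peptide, at 0.628 and 1.07 FPKM against 87.9, 98.8, 27.9 and 23.2 FPKM, HLA-DOB, which tempers peptide loading, at 2.02 and 1.75 FPKM against 57.5, 51.9, 29.1 and 32.6 FPKM, and HLA-DMB, which exchanges peptide, at 19.2 and 25.9 FPKM against 60.5, 48.5, 64.2 and 66.1 FPKM. The call of HLA-DQB1 was lost when either WT-titled library was left out (adjusted p between 0.0503 and 0.0588). Of 32 interferon response genes 5 were called higher, 1 lower and 26 were not (median 0.11), and 3 stayed called higher when either WT-titled library was left out. MX1, an antiviral GTPase, was at 10.5 and 13.4 FPKM against 0.471, 0.763, 0.0976 and 0.171 FPKM and BST2, tetherin, at 29.6 and 27.2 FPKM against 135, 215, 128 and 129 FPKM, in opposite directions. IFI44L was at 0.0924 and 0.0745 FPKM against 28.3, 50.5, 0.0349 and 0.0208 FPKM, so that the resistant DAUDI libraries alone were above 1 FPKM.

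Markers of other cell types were read alongside. Of 15 cytotoxic granule genes 9 were tested, with 4 called higher, 1 lower and 4 not. Their summed level was 590 and 693 FPKM in the WT-titled libraries and 47.9 to 64.6 FPKM in the resistant ones, most of it GZMB in the former. SRGN, the granule proteoglycan, was at 86.3 and 85.4 FPKM against 2.74, 5.96, 0.0331 and 0 FPKM and GZMH, a second granzyme, at 8.26 and 12.5 FPKM against 0, 0.0266, 0 and 0 FPKM, and the call of SRGN was lost when either WT-titled library was left out (adjusted p of 0.079 in both cases by limma). NKG7 and GNLY, markers of killer cells, were listed at 0 in both WT-titled libraries. PRF1, perforin, chosen after its value was seen, was at 0 and 0.0248 FPKM against 0.547, 1.52, 0.0124 and 0 FPKM. Of 18 T and NK cell markers 4 were tested (1 called higher, 2 lower), and when either WT-titled library was left out 0 were called higher by limma (1 and 0 at an unadjusted p under 0.05) and 1 lower. The sum was 4.05 and 7.92 FPKM against 8.93 to 19.1 FPKM. The member called higher was CD4, also found on myeloid cells, at 3.51 and 7.30 FPKM against 1.21, 1.95, 0 and 0.0227 FPKM, a call lost without any 1 library other than the ibrutinib-resistant DAUDI one (adjusted p between 0.0659 and 0.284 by limma). CD3D and CD3E were listed at 0 in both WT-titled libraries. KLRK1 was called lower at 0.265 and 0.230 FPKM against 4.71, 4.63, 11.7 and 12.8 FPKM, a call lost when either WT-titled library was left out (adjusted p between 0.0740 and 0.0769 by limma). Of 17 myeloid markers 10 were tested, with 3 called higher, 1 lower and 6 not, and a sum of 156 and 170 FPKM against 29.7 to 41.6 FPKM. The higher ones were MNDA, CD68 at 16.1 and 18.7 FPKM against 2.09, 4.29, 1.84 and 3.07 FPKM and TYROBP, a signalling adaptor, at 15.97 and 11.5 FPKM against 0.0858, 0.187, 0.590 and 0.339 FPKM. CD14, CSF1R and LYZ, which define monocytes, were under 0.2 FPKM in both WT-titled libraries, and CD33 was called lower at 0.0326 and 0 FPKM against 2.29, 10.6, 29.1 and 26.2 FPKM, a call lost without any 1 library other than the idelalisib-resistant DAUDI one (adjusted p between 0.0579 and 0.179 by limma).

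Of 14 plasmacytoid dendritic cell markers 11 were tested, with 5 called higher, 2 lower and 4 not. When either WT-titled library was left out 4 stayed called higher and 0 lower by limma, with 2 lower at an unadjusted p under 0.05. The sum was 1344 and 1572 FPKM against 255 to 882 FPKM, and GZMB, SPIB and TCF4 account for the count together with IL3RA, the IL-3 receptor, at 5.77 and 9.69 FPKM against 0.0720, 0.289, 0.0772 and 0.159 FPKM and CLEC4C, a defining marker, at 0.888 and 1.44 FPKM against 0.123, 0, 0 and 0 FPKM. LILRA4, another defining marker, was under 0.8 FPKM in all libraries. Of 17 stromal and epithelial markers 4 were tested and 1 called higher, CDH1 or E-cadherin, at 26.02 and 26.6 FPKM against 0.0461, 0.207, 0 and 0.00639 FPKM, with EPCAM under 0.04 FPKM in all libraries and a sum of 28.0 and 28.9 FPKM against 4.83 to 20.6 FPKM. Of 11 erythroid and megakaryocyte markers 3 were tested and 0 called by limma, also at an unadjusted p under 0.05, while without DAUDI-WT all 3 were called higher. The sum was 0.143 FPKM in DAUDI-WT, 7.599 FPKM in DOHH2-WT and at most 0.214 FPKM in the resistant libraries. HBB, a globin, was at 3.39 FPKM in DOHH2-WT and at or under 0.0720 FPKM in the others. How far such cells take part in the differences was not tested.

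The groups also differed in which isoform of a gene was read. Among 1711 genes with at least 10 FPKM in every library and more than 1 isoform listed, 55 (3.21%) had an isoform whose share of the gene's FPKM was at least 20 percentage points apart between the nearest libraries of the groups, and 17 had one at least 30 points apart. No test was made of these shares. PTPRC encodes CD45, the phosphatase that activates SRC family kinases, and lymphocytes drop variable exons from it as they become activated. The full-length transcript NM_002838 (5429 nt) made up 20.04% and 28.8% of PTPRC in the WT-titled libraries and 99.5% in each resistant library. The short transcript NM_080921 (4946 nt), the CD45RO form without the variable exons, made up 73.9% and 65.1% in the WT-titled libraries and stayed close to 0 in every resistant one. The summed level of PTPRC was 174 and 158 FPKM against 86.6, 88.0, 128 and 125 FPKM and was not called (adjusted p = 0.065 by limma, and 0.039 with the cell line as a block), and the isoform with the highest mean alone gave a difference of -1.37. In CD53, a tetraspanin, NM_000560 made up 72.8% and 66.6% against at most 3.27% in the resistant libraries, and NM_001040033, whose start lies further upstream, held the rest. CD53 as a whole was called higher at 166 and 178 FPKM against 101.3, 120.0, 119 and 110.2 FPKM, but its more abundant isoform alone gave a difference of -1.08. The call of CD53 was lost when either WT-titled library was left out (adjusted p between 0.0533 and 0.0779 by limma).

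DHX30, an RNA helicase, and PRKACB, a catalytic subunit of protein kinase A, also exchanged isoforms without a call at the gene level, although the isoform with the highest mean alone gave a difference of -1.76 for DHX30. NM_138615 of DHX30 had a share of 18.4% and 9.97% in the WT-titled libraries and of 72.7%, 70.6%, 67.2% and 72.3% in the resistant ones. NM_182948 of PRKACB had a share of 27.3% and 20.7% against 88.4%, 88.7%, 78.2% and 77.5%. In signalling and factor genes chosen after their values were seen, MALT1, the protease of the NF-kB pathway, had NM_173844 at 98.1% and 99.9998% against 27.3%, 20.2%, 50.5% and 45.9%. The gene's own call, at 20.6 and 19.0 FPKM against 10.7, 14.4, 10.7 and 10.9 FPKM, was lost when either WT-titled library was left out (adjusted p between 0.0997 and 0.135 by limma). FOXP1 had NM_001244815 at 65.0% and 59.0% against 7.32%, 14.6%, 8.86% and 8.91%.

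**Figure D5:**
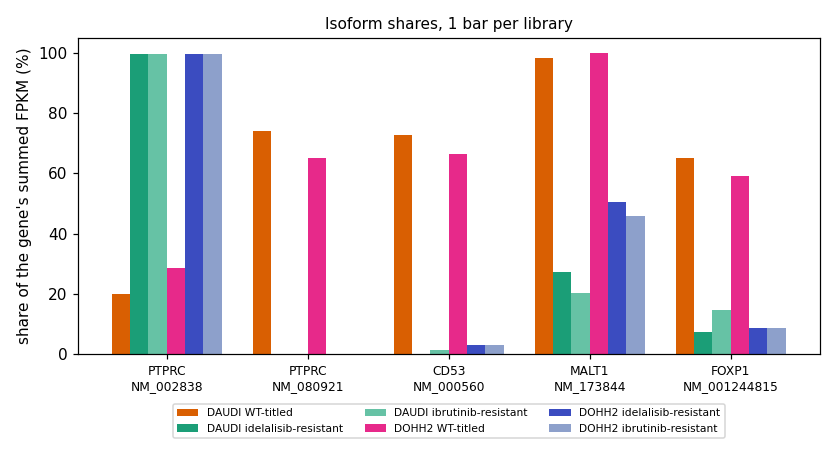
Share of the gene's summed FPKM held by 1 isoform, in percent, with 1 bar per library. The full-length isoform of PTPRC holds 99.5% in each resistant library and 20.04% and 28.8% in the WT-titled ones, and the short isoform holds most of the remainder there.

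The genes with a gap of 1 or more were spread over all chromosomes tested, with unequal shares. On the X chromosome 11.8% of 415 genes lay above and 2.65% below, and on chromosome 18 the shares were 14.6% and 3.51% of 171 genes. Chromosome 19 had a high share in both directions, 15.1% above and 10.4% below of 902 genes. Chromosomes 4, 6, 7 and 8 had more genes below than above, with 12.2%, 11.03%, 8.70% and 11.5% below. The shares over all genes were 8.24% and 6.26%, and no test was made between chromosomes.

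The motifs marked in the promoters above occurred among the separated genes at shares near those of all promoters. A search on both strands of the 250 bases before the gene start found the composite ETS and IRF element in 2.39% of the 9740 promoters that matched the 12337 tested genes by symbol, in 2.54% of 787 promoters of genes above and in 2.34% of 599 promoters of genes below. The interferon element was found in 2.57%, 3.18% and 2.17% of these, and it can overlap the first motif. The NF-kB letters were found in 27.1%, 30.2% and 29.9%. The promoters printed above were picked for holding a motif. Of the 15 widest genes above, 14 had a matched promoter. Among these 2 held the NF-kB letters, 1 the interferon element and 0 the composite element. Of the 15 widest below, 12 had one, and 2, 0 and 1 held these motifs in the same order. A match describes the letters only, and these shares were not tested.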

How the data were processed

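PolyA RNA of 6 cultures was measured with 1 directional library each, per the labels' protocols. TopHat2, Cufflinks, cutadapt and bcl2fastq are the tools, and hg19 the build, named in the submitters' processing notes, without versions or settings. The authors deposited FPKM for 43490 RefSeq isoforms per library, with lower and upper FPKM bounds that were not used here. The deposited tables also list coverage, a signal not scaled to library size, which was used for relative depth alone, and isoform length.

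From these, FPKM were summed by gene symbol. Left out were 528 isoforms without a gene name and 10 genes with a failed estimate. Genes with 1 FPKM in at least 1 library were kept (12337). The difference of mean log2(FPKM + 1), which understates the change of low genes, was tested with limma 3.58.1 (R 4.3.3), with 2 WT-titled against 4 resistant libraries, empirical Bayes with trend, 4 residual and 1.64 prior degrees of freedom, two-sided, with Benjamini-Hochberg adjustment at 0.05. The median SE was 0.217. An exact permutation of 2 against 4 libraries cannot reach 0.05, so none was run. The code was tested on simulated data.

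The libraries, the 29 gene lists (583 names) and the tests were chosen with earlier results of these data known. Genes named are BTK and PIK3CD, the 15 of widest gap in each direction (at 5 FPKM in the higher group and 300 nt or longer, without small RNAs, receptor segments and unnamed loci), any member of the B cell lists and up to 6 members of largest difference in other lists, and 6 isoforms by share gap. The text marks genes outside this rule, except markers that define other cell types. The labels pair libraries by line, but over genes the deviation of the lines in WT-titled and in resistant libraries had r = -0.040, and the line was used as a block in an alternative only. Promoters come from RefSeq on GRCh38.p14. Alternatives were other pseudocounts, filters, scalings, isoform choices, groupings and leaving out each library. Counting the called list members without a WT-titled library and with 3 groups was chosen after seeing the data. Some genes are not reported here.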

Additional observations from a re-analysis of the deposited data

Results flagged for a closer look

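In 5 of 119 named genes examined, 1 of the 4 resistant libraries stood apart from the other 3, by a gap to its neighbour that was a large share of the group's range on the log2(FPKM + 1) scale. The test was made where a resistant library reached 1 FPKM, and chance flags about 1 in 20 groups, which would be 5.95 of 119. For ITM2C the ibrutinib-resistant DOHH2 library was the highest, with a gap of 0.940 of the range. For MALT1 and BST2 the ibrutinib-resistant DAUDI library was the highest, at 0.920 and 0.894. For BCL2A1 the idelalisib-resistant DAUDI library was the lowest, at 0.868, and for PPDPF it was the highest, at 0.833. All WT-titled libraries of these genes lay outside the resistant range.

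In 22 of the same 119 genes the difference between WT-titled and resistant libraries itself differed between the lines. The call was by the interaction in limma on log2(FPKM + 1), with 2 residual degrees of freedom and an adjusted p under 0.05. Over all genes tested 9.6% had this call, a set that also holds genes under 1 FPKM in every resistant library. With the WT-titled libraries close together, such a call can come from the resistant lines differing from each other. Values here are the difference titled DAUDI minus the difference titled DOHH2, and each rests on 1 WT-titled library per line. The WT-titled excess was larger with the DAUDI libraries for BCL2 at 5.64, RGS13 at 5.31, VAV2 at 2.36, MIR155HG at 1.74 and SYK at 0.975. PRKAR2B at 1.97 and KLRK1 at 1.26 were lower in the WT-titled libraries, by more with the DOHH2 libraries. On the other side stood TCL1A at -8.38, IFI44L at -5.22, PRKCB at -4.66, LYZ at -3.94, FCER2 at -3.67, FGR at -3.51 and A4GALT at -3.20. XBP1 at -2.94, TCL1B at -2.79, CD4 at -2.22, HLA-DQB1 at -2.18, SLAMF7 at -1.42, NKG7 at -1.20, CD27 at -1.10 and PIM2 at -0.968 completed them. For BCL2 the differences were 5.54 in DAUDI and -0.11 in DOHH2, and for TCL1A they were 0.19 in DAUDI and 8.58 in DOHH2.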

How the results depend on the processing

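The counts of genes on one side, and of genes called by limma, stayed within 1.5 times of the reported ones under other pseudocounts, filters and scalings. Gap counts moved with the pseudocount: at 0.1, 1212 genes lay below by a gap of 1 or more, and at 5, 526 lay above and 309 below. Without 1 library the calls ran from 1046 to 1962 higher and from 787 to 2208 lower, and leaving out a WT-titled library, which leaves 1 in that group, gave the low ends. With 3 groups, the WT-titled libraries were set against the mean of the resistant DAUDI and the resistant DOHH2 groups. The spread was taken within each group, and 3294 genes were called higher and 4331 lower. Of the 166 named genes 23 then gained a call. Among those given as not called, BCL2 (adjusted p = 2.82e-05 by limma), TCL1A (6.81e-06), PRKCB (0.000199), INPP5D (0.00117), RGS13 (0.00212), PAX5 (0.00729), SYK (0.00877) and LMO2 (0.0107) were higher. XBP1 (0.00158), CD79A (0.00968), MEF2B (0.0154), IGLL1 (0.0329), FGR (7.59e-05), A4GALT (0.000119), FCER2 (0.000955) and IFI44L (0.000365) were lower. The others were SERPINA9, PTPRC, NKG7, CD3E, LYZ, CSF1R and PRKACB. A call against the mean of the lines need not hold against each line. Both WT-titled libraries were below the resistant DOHH2 libraries for RGS13 and LMO2, and overlapped them for BCL2 and SYK. For A4GALT and IFI44L they were above the resistant DOHH2 libraries, and for FCER2 they overlapped them. With the cell line as a replicate block 2160 were called higher and 2664 lower, and of the named genes only MEF2B, FGR, INPP5D and PTPRC changed, becoming called. Isoform counts rose to 104 genes at a minimum of 5 FPKM and fell to 17 at a gap of 30 points. The difference of CD79B turned from -0.04 to 0.115 under the median of ratios, 0.00394 under the upper quartile, 0.176 with the top isoform, 0.105 without DAUDI-WT, and 0.370 and 0.392 without the idelalisib- and ibrutinib-resistant DAUDI libraries, and without 1 library it ran from -0.596 to 0.392. With the top isoform alone PTPRC turned to -1.372, CD53 to -1.076 and DHX30 to -1.761, where the isoforms go in opposite directions. A list median was counted as turned only where its reported value was further from 0 than the list's spread within the groups. Those that turned were stromal markers at 0.0097 without a filter, proliferation at 0.034 under the median of ratios, and erythroid markers. The erythroid median ran from -0.0225 without DOHH2-WT to 1.58 without DAUDI-WT. Medians nearer to 0 also changed sign. Interferon response went from 0.112 to -0.564 without the idelalisib-resistant DOHH2 library. MHC class I went from -0.012 to 0.304 without the ibrutinib-resistant DAUDI library, and MYC targets from 0.053 to -0.060 without DAUDI-WT. Of 166 named and tested genes 106 kept their call in every alternative. Apart from these exceptions the cause was not tested. Depth is unknown, so values near 0 have no interval.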
